A study of Mus musculus with 14 samples.

Results

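RNA levels of 38 genes of meiotic chromosome synapsis and recombination were examined in the testis of mice lacking Tsga8, a gene transcribed in spermatids. A list of 40 symbols was looked up in the gene column of the deposited table, which holds 25965 genes, and 38 symbols were found by exact match. The 2 others, Meiob and Meioc, are not analysed here. The libraries came from adult whole testis, with 3 libraries of control (Tsga8+/Y) and 3 of knockout (Tsga8-/Y) mice, and from tissue cut out of sections by laser capture. One captured region held round spermatids at steps 4-8 of their maturation and the other held round spermatids at steps 1-3 together with elongated spermatids at steps 9-16, each with 2 control and 2 knockout libraries. All groups were male and differed by genotype and tissue. Replicates are animals, 2 or 3 a group, by the design text. No label ties a library of one captured region to an animal of the other, and tests between regions treat their libraries as separate. The kits differed, directional for whole testis and SMART-seq2, made for minute inputs, for captured tissue. Levels of both kinds of tissue were therefore set side by side without a test.

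During the first meiotic division, cohesin rings and axis proteins organise each chromosome into loops, and programmed DNA breaks are made along the axis. The synaptonemal complex zips homologous chromosomes together while the breaks are repaired, some of them as crossovers. A checkpoint built on axis proteins and the ATR kinase watches over unsynapsed chromosomes and silences the X and Y in spermatocytes. These genes are mainly active in spermatocytes, the stage before the spermatids that were captured here. In tissue of mixed cells, fewer spermatocytes and less RNA per spermatocyte cannot be told apart.

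Tsga8 itself was measured at 106, 88.6 and 104 RPKM in controls and 2.62, 2.12 and 3.2 RPKM in knockouts of whole testis. RPKM is the read number per kb of gene span, scaled to depth. In the captured tissue it was 239 and 193 (control) and 2.18 and 3.76 RPKM (knockout) at steps 4-8, against 56.9 and 209 (control) and 9.42 and 6.96 RPKM (knockout) at steps 1-3 and 9-16. Depth was 30388508 to 49147310 reads per whole testis library and 23467216 to 72022321 per captured library. Of 17 spermatid marker genes found, none was at 0 reads in any library, and their mean log2(RPKM + 1) was 6.27 to 6.58 in whole testis. In captured tissue it was 6.37 to 7.21. The 15 markers of late spermatocytes and meiotic division stood at 3.46 to 3.63 in whole testis. They stood at 2.4 to 3.67 in captured libraries. The 15 Sertoli cell markers stood at 2.65, 2.23 and 2.25 in control testis and at 2.61, 2.6 and 2.8 in knockout testis, and at 0.919 to 1.83 in captured tissue. Of the 9 Leydig cell markers, 4 were at 0 reads in 1 captured knockout library of steps 4-8, and the mean over captured libraries ran from 0.0148 to 1.38.

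The genes were first placed by how much of each was present in control testis, as reads per kb of annotated exon, scaled to depth in the same way. Hspa2, a chaperone of spermatocytes, led with 355 ± 33.7 (SD, n = 3), followed by Syce1 of the synaptonemal complex with 244 ± 10.3. Sycp3, a protein of the chromosome axis, followed with 138.5 ± 22.7. The cohesin subunits Stag3 (97.8 ± 2.59) and Smc1b (91.8 ± 0.6) came next, and both their means lay inside the spread of Sycp1 (89.7 ± 19.9). At the other end stood Prdm9 with 2.06 ± 0.184, Rnf212 with 1.67 ± 0.13 and Mei4 with 0.56 ± 0.0749. The span of the genes on the genome, the length used for RPKM, ran from 1.357 kb for H2afx to 342.338 kb for Mei4, with a median of 30.0745 kb against 13.356 kb over all genes in the table.

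The promoters of 4 genes called in whole testis, 3 of them lower and 1 higher in the knockout, are printed to show which motif letters they hold. They run from 250 bases before to 50 after the annotated start, 5′ to 3′ on the gene's strand, and come from RefSeq on GRCm38.p6. Smc1b lies at chr15:85131908-85132207 (minus strand), Sycp2 at chr2:178407609-178407908 (minus), Mlh3 at chr12:85270550-85270849 (minus) and Syce3 at chr15:89410454-89410753 (minus). Capitals mark matches on either strand to AACNGNC, the core letters bound by MYB factors, or to the NRF1 motif.
Smc1b: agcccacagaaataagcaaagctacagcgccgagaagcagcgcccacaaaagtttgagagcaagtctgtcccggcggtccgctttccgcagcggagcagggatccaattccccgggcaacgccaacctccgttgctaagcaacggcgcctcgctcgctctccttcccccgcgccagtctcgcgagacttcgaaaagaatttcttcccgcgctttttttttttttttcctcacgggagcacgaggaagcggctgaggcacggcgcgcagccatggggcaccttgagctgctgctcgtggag
Sycp2: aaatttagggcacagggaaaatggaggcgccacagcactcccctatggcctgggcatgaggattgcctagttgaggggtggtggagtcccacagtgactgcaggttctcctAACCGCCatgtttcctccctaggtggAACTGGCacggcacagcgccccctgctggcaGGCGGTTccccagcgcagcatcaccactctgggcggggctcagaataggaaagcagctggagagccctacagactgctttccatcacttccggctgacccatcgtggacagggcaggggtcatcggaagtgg
Mlh3: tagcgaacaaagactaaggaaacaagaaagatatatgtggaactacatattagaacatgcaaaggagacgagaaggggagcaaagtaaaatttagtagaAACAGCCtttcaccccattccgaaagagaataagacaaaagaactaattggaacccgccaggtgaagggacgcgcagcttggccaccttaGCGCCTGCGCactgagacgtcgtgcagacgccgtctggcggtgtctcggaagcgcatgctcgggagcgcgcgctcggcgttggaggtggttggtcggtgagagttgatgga
Syce3: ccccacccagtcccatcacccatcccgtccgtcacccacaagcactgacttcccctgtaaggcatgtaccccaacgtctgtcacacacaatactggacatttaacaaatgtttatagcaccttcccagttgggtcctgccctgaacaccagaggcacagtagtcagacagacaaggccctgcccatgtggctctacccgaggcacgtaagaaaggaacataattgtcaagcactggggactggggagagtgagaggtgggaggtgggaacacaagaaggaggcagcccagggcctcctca

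Sycp2 held the MYB letters at 3 places and Mlh3 held both sets once each, while Smc1b, which was lower in the knockout, and Syce3, which was higher, held none of the 5 motifs searched. The RefSeq table had a promoter for 33 of the 38 genes. AACNGNC was in 54.5% of them, against 32.8% of all 27025 promoters and 33.4% of those of genes tested. GGCGGGA, an E2F motif, was in 30.3% against 11.4% and 18.1%, and the NRF1 motif was in 18.2% against 4.78% and 8.28%. TGACGTCA, the cyclic AMP response element, and GTTGCCA, letters of an RFX site, were in 0 of the 33, against 1.88% and 4.46% of all promoters. No match of either kind overlapped a match of the other in the printed windows.

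In whole testis, a small number of long meiotic genes stood lower in the knockout, while Sycp3, Spo11 and Dmc1 were not called. By limma on log2(RPKM + 1), 23 of the genes were tested, those reaching an RPKM of 1 in 3 or more libraries. Smc1b and Tex15 were lower in the knockout and 0 were higher, with a call where the adjusted p was under 0.05. Over all 8146 genes tested 2.04% were lower and 4.11% higher. The median difference was -0.08 (log2) over the 23 and 0.09 over all genes tested. The 15 genes left out by this filter still had 35 to 7125 reads per library, so all 38 were also tested by limma voom on the whole read numbers recovered from the table. That test called 9 genes lower and 1 higher, or 23.7% and 2.63% of the 38, against 8.38% and 4.16% of 19140 genes. The median difference there was -0.26 over the 38 and -0.03 over all genes, and 33 of the 38 differences were negative, against 10268 of 19140 genes. By limma 16 of the 23 were negative, against 2504 of 8146 genes. An unadjusted p under 0.05 was reached by 29.1% of all genes tested by limma and 29.3% of those by limma voom, and by 10 of the 23 (43.5%) and 17 of the 38 (44.7%).

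**Figure D1:**
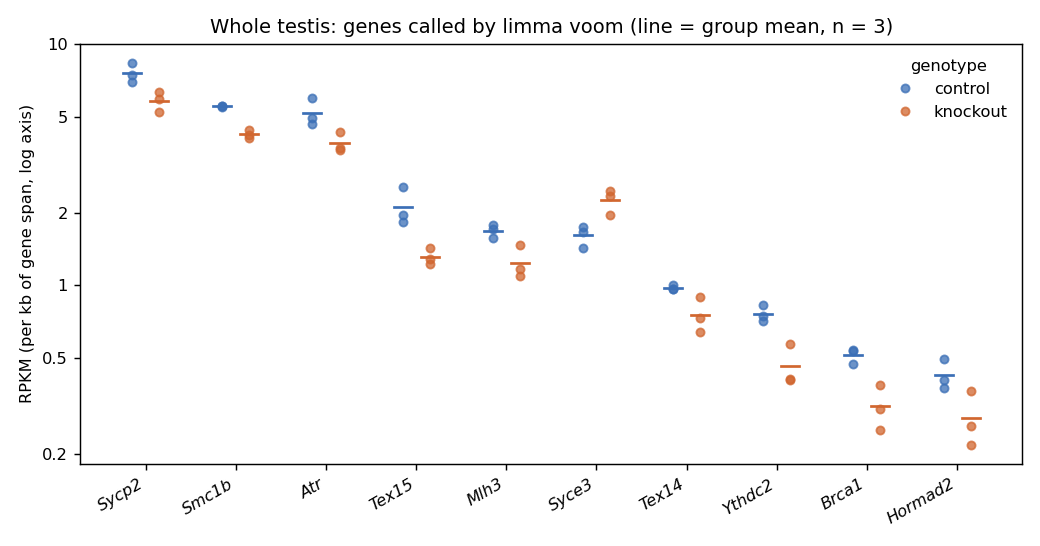
RPKM (log axis) of the 10 genes called by limma voom in each whole testis library, controls and knockouts, with a point per library and a line at each group's mean. The 3 knockout libraries lay below the 3 controls for 9 of the 10 genes, and above them for Syce3. The genes were chosen by their calls in these same libraries, so this separation adds no support. Of all genes tested by limma voom, 32.3% had groups that did not overlap.

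Among cohesin subunits, the rings that hold sister chromatids, Smc1b differed most clearly. Smc1b, the meiotic partner of Smc3, stood at 5.54, 5.56 and 5.49 RPKM in the 3 control libraries and 4.41, 4.09 and 4.21 RPKM in the 3 knockout libraries. The groups did not overlap, at means of 5.53 ± 0.0361 and 4.24 ± 0.161 RPKM (SD, n = 3 each). The limma difference was -0.32 ± 0.07 (adjusted p = 0.0371) and that of limma voom -0.43 ± 0.08 (adjusted p = 0.00913), a level 74.2% of control. Smc3, which also serves in mitosis, stood at 2.89, 2.84 and 2.78 RPKM in controls and 2.61, 1.88 and 2.34 RPKM in knockouts, without overlap, but at -0.38 ± 0.12 (adjusted p = 0.0653) by limma voom it was not called, though it was with the replicate block (-0.38 ± 0.10, adjusted p = 0.0304). Stag3 (-0.13 ± 0.08, adjusted p = 0.295), Rec8 (-0.02 ± 0.11, adjusted p = 0.905) and Rad21l (-0.35 ± 0.20, adjusted p = 0.269), the other meiosis-specific subunits, had overlapping groups.

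Of the 7 genes of the synaptonemal complex, limma voom called 1 lower and 1 higher, and limma called 0, with 4 of the 7 at an unadjusted p under 0.05. Over all genes tested, limma voom called 8.38% lower and 4.16% higher, and limma found 29.1% at that unadjusted p. Sycp2, part of the lateral element that coats the axis, stood at 8.33, 7.43 and 6.96 RPKM in the 3 control libraries and 6.33, 5.9 and 5.23 RPKM in the 3 knockout libraries, and the groups did not overlap. Its limma difference was -0.33 ± 0.09 (adjusted p = 0.076) and its limma voom difference -0.42 ± 0.10 (adjusted p = 0.0226). Syce3, a central element protein that starts synapsis, stood at 1.75, 1.43 and 1.66 RPKM in controls and 1.96, 2.34 and 2.45 RPKM in knockouts, with every knockout library above every control. It was called higher by limma voom alone, at 0.45 ± 0.13 (adjusted p = 0.0436) against 0.31 ± 0.08 (adjusted p = 0.0636) by limma. Syce1, another central element protein, likewise stood higher without overlap at 34.3, 34.4 and 31.9 RPKM in controls and 38.7, 41.1 and 38.3 RPKM in knockouts, but by 0.19 ± 0.08 (adjusted p = 0.145) it was not called. Sycp1, the filament that spans between the lateral elements, stood at 3.38, 2.54 and 2.22 RPKM in controls and 2.32, 2.03 and 1.73 RPKM in knockouts, where control 3 lay below knockout 1, and limma voom did not call it (-0.45 ± 0.15, adjusted p = 0.075). Within each pair of the same number the knockout was lower. With the replicate number as a block, a pairing read from these same data, limma voom called Sycp1 (-0.45 ± 0.08, adjusted p = 0.00476). Sycp3 (14.7, 13.2 and 10.5 RPKM in controls and 14.2, 12.6 and 10.9 RPKM in knockouts), which lies wholly within the span of another gene, Chpt1, had overlapping groups, at -0.07 ± 0.14 (adjusted p = 0.785). Syce2 (-0.29 ± 0.10, adjusted p = 0.0866) and Tex12 (-0.11 ± 0.18, adjusted p = 0.734), the remaining central element genes, were not called either. With the block read from these same data Syce2 was called (-0.29 ± 0.09, adjusted p = 0.042).

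**Figure D2:**
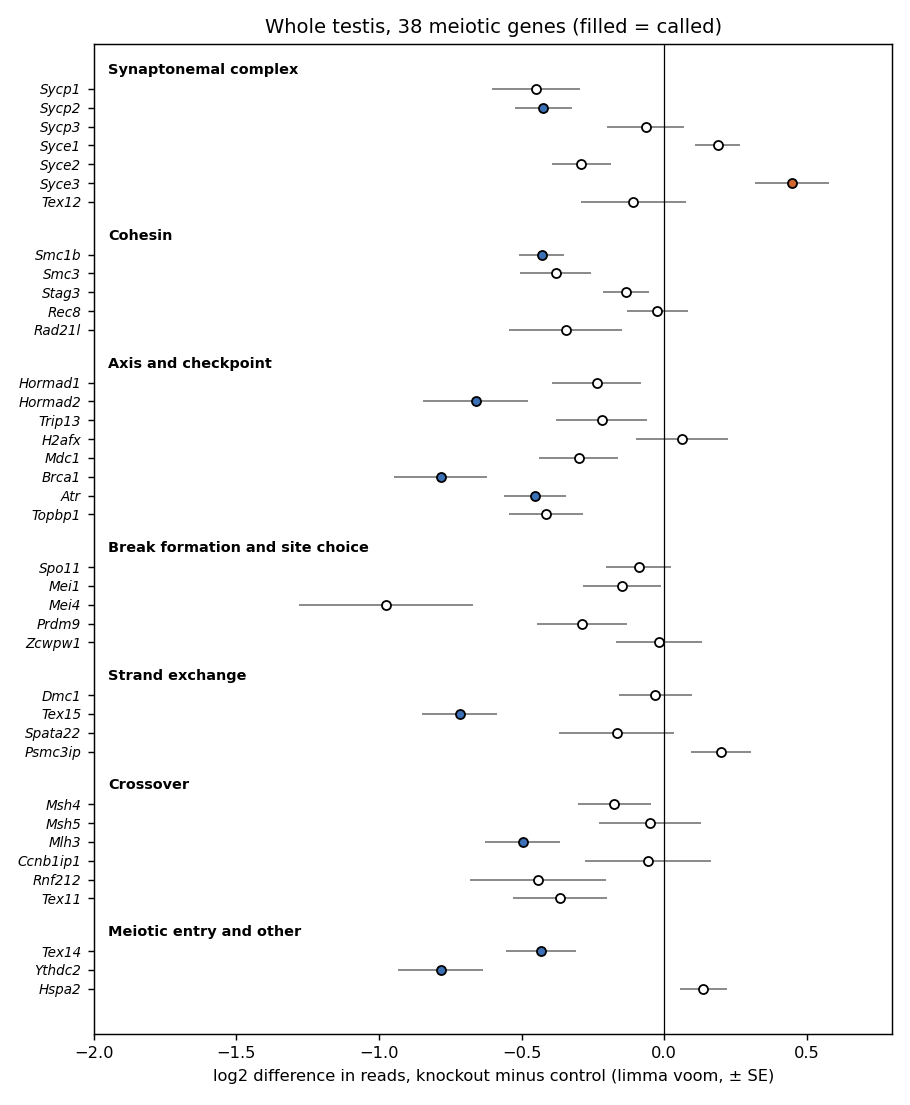
Log2 difference, knockout minus control, of each of the 38 genes in whole testis by limma voom, with SE, grouped by role. Filled points are called genes, 9 below 0 and Syce3 above it. Over all genes tested, 8.38% were called lower and 4.16% higher.

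For axis and checkpoint genes, 3 of 8 were called lower by limma voom and 0 of 5 by limma, which found 2 of the 5 at an unadjusted p under 0.05. Over all genes tested, limma voom called 8.38% lower and limma found 29.1% at that unadjusted p. Atr, the kinase that acts on unsynapsed axes, stood at 4.92, 4.68 and 5.99 RPKM in the 3 control libraries and 4.33, 3.72 and 3.65 RPKM in the 3 knockout libraries. The groups did not overlap, and the difference was -0.34 ± 0.10 (adjusted p = 0.0846) by limma and -0.45 ± 0.11 (adjusted p = 0.0234) by limma voom. Brca1, which helps bring ATR to the axis, stood at 0.542, 0.473 and 0.532 RPKM in controls and 0.387, 0.251 and 0.306 RPKM in knockouts, with groups that did not overlap and a limma voom difference of -0.78 ± 0.16 (adjusted p = 0.0137). Limma tested Brca1 only without a filter on low values and did not call it (adjusted p = 0.118). Hormad2, an axis protein that marks unsynapsed chromosomes, stood at 0.493, 0.375 and 0.403 RPKM in controls and 0.365, 0.219 and 0.261 RPKM in knockouts, and its groups did not overlap either, at -0.66 ± 0.18 (adjusted p = 0.0394) by limma voom. Hormad2, too, was tested by limma only without that filter and was not called (adjusted p = 0.217). Its relative Hormad1 stood at 3.98, 3.35 and 2.74 RPKM in controls and 3.47, 2.83 and 2.5 RPKM in knockouts and overlapped, at -0.24 ± 0.15 (adjusted p = 0.337). Topbp1, the activator of ATR, had groups that barely missed overlap (2.55, 1.93 and 2.19 RPKM in controls and 1.93, 1.54 and 1.67 RPKM in knockouts) but was not called at -0.42 ± 0.13 (adjusted p = 0.0579). With the replicate block, a pairing read from these same data, it was called (-0.42 ± 0.08, adjusted p = 0.00867). Trip13, the ATPase that removes HORMAD proteins, was not called (-0.22 ± 0.16, adjusted p = 0.391). Nor were Mdc1, which spreads the checkpoint signal (-0.30 ± 0.14, adjusted p = 0.175), and H2afx, the histone it reads (0.06 ± 0.16, adjusted p = 0.831).

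None of the 5 genes of break formation and site choice was called, 0 of 2 tested by limma and 0 of 5 by limma voom. At an unadjusted p under 0.05 the counts were 0 and 1, the last being Mei4, against 29.1% and 29.3% of all genes. Spo11, whose product cuts the DNA, stood at 4.71, 4 and 3.96 RPKM in controls and 4.42, 3.85 and 3.98 RPKM in knockouts (-0.09 ± 0.11, adjusted p = 0.639). Prdm9, the histone methyltransferase that chooses the sites, stood at 0.449, 0.426 and 0.376 RPKM in controls and 0.381, 0.344 and 0.333 RPKM in knockouts (-0.29 ± 0.16, adjusted p = 0.252). Both genes had overlapping groups. Mei4, needed for the cuts, had only 35 to 96 reads per library and stood lower in every knockout library, at -0.98 ± 0.30 (adjusted p = 0.0578). With the replicate block, a pairing read from these same data, it was called (-0.94 ± 0.24, adjusted p = 0.0251). Mei1 (-0.15 ± 0.14, adjusted p = 0.511) and Zcwpw1, which reads the PRDM9 marks (-0.02 ± 0.15, adjusted p = 0.951), overlapped.

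By limma voom, strand exchange and crossover held 2 calls among 10 genes, both lower, against 8.38% of all genes called lower. Tex15, which is needed for loading recombinases on breaks, stood at 1.95, 1.83 and 2.55 RPKM in the 3 control libraries and 1.43, 1.22 and 1.29 RPKM in the 3 knockout libraries. All 3 knockout libraries lay below all 3 controls, and the difference was -0.42 ± 0.09 (adjusted p = 0.0446) by limma and -0.72 ± 0.13 (adjusted p = 0.00868) by limma voom, a level 60.8% of control. Dmc1, the meiotic recombinase itself, stood at 0.824, 0.756 and 0.708 RPKM in controls and 0.857, 0.713 and 0.75 RPKM in knockouts and overlapped (-0.03 ± 0.13, adjusted p = 0.896). Psmc3ip, a DMC1 cofactor, stood higher in every knockout library (32.7, 29.9 and 26.7 RPKM in controls and 33.7, 38.1 and 33.5 RPKM in knockouts) without a call (0.20 ± 0.10, adjusted p = 0.234), and Spata22, a single-strand DNA binding factor, overlapped (-0.17 ± 0.20, adjusted p = 0.621). Among crossover genes, Mlh3, the endonuclease subunit that resolves crossovers, stood at 1.71, 1.56 and 1.77 RPKM in the 3 control libraries and 1.47, 1.09 and 1.17 RPKM in the 3 knockout libraries. The groups did not overlap, with -0.50 ± 0.13 (adjusted p = 0.033) by limma voom and -0.26 ± 0.08 (adjusted p = 0.0829) by limma. The MutS partners Msh4 (-0.17 ± 0.13, adjusted p = 0.399) and Msh5 (-0.05 ± 0.18, adjusted p = 0.88) were not called. The ring finger proteins Ccnb1ip1 (-0.06 ± 0.22, adjusted p = 0.888) and Rnf212 (-0.44 ± 0.24, adjusted p = 0.241) were not called either. X-linked Tex11, at 0.125, 0.11 and 0.089 RPKM in controls and 0.101, 0.0776 and 0.0807 RPKM in knockouts, also overlapped (-0.37 ± 0.17, adjusted p = 0.165).

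Of the 3 genes of meiotic entry and germ cell support, limma voom called 2 lower, against 8.38% of all genes. Ythdc2, an RNA helicase that germ cells need to enter and pass meiotic prophase, stood at 0.828, 0.709 and 0.749 RPKM in controls and 0.572, 0.404 and 0.411 RPKM in knockouts, with groups that did not overlap, at -0.78 ± 0.15 (adjusted p = 0.0101). Limma tested Ythdc2 only without a filter on low values and did not call it (adjusted p = 0.113). Tex14, which keeps the bridges between germ cells open, stood at 1, 0.962 and 0.964 RPKM in controls and 0.896, 0.639 and 0.731 RPKM in knockouts, also without overlap, at -0.43 ± 0.12 (adjusted p = 0.0424) by limma voom. Tex14, too, was tested by limma only without that filter and was not called (adjusted p = 0.203). Hspa2 stood at 377, 327 and 316 RPKM in controls and 378, 384 and 389.6 RPKM in knockouts, with every knockout library above every control, and at 0.14 ± 0.08 (adjusted p = 0.301) it was not called.

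Over the whole group the groups of libraries were apart for 17 of 38 genes, 4 higher and 13 lower in the knockout, against 32.3% of all genes tested by limma voom. Without control 2, control 3, knockout 2 or knockout 3, limma called 0 of the 23, with adjusted p up to 0.171 for Smc1b and 0.169 for Tex15. Smc1b also missed the threshold on a common sum (adjusted p = 0.0605), and Tex15 with no filter on low values (adjusted p = 0.121). Limma voom called 6, 5 and 4 genes without control 1, 2 and 3, and 15, 3 and 1 without knockout 1, 2 and 3. Over these fits, it called Tex15 in 6 of 6, Smc1b and Ythdc2 in 5, and Brca1 and Atr in 3. Sycp2 and Syce3 were called in 2 of them, and Hormad2, Mlh3 and Tex14 in 1. With the replicate number as a block, a pairing read from these same data, limma called Sycp2 as well (-0.33 ± 0.07, adjusted p = 0.0439). Limma voom with that block called Mei4, Smc3, Syce2, Sycp1 and Topbp1 as well, giving 3 calls by limma and 15 by limma voom. The share of all genes called was not counted in these refits, so the changes in number cannot be read as particular to the 38. The Sertoli cell markers Vim and Ctsl were higher in the knockout by limma, 2 of 12 tested or 16.7%, against 4.11% of all genes. Limma voom called 3 higher and 1 lower of 15, or 20% and 6.67%, against 4.16% and 8.38% of all genes. Of the 17 spermatid markers limma called 0. Limma voom called 3 of them lower, or 17.6%, and 0 higher, with a median difference of 0.05. The 15 late spermatocyte markers had a median difference of 0.11 with 0 called. At unadjusted p under 0.05 limma found 2 of them and limma voom, which called 1 lower, found 2, or 13.3% each against 29.1% and 29.3% of all genes. The part of these marker levels in the differences was not tested.

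Of the 9 genes called lower, 8 had a span of 50 kb or more. The rank correlation of span with the limma voom difference was -0.76 over the 38 genes, which share libraries, as a description, and -0.398 over all 19140 genes. Of the 12 genes with a span of 50 kb or more, 8 were called lower, or 66.7%, with a median difference of -0.45; over all 4816 genes of that span 22.1% were called lower with a median of -0.29. Of the 13 genes from 20 to 50 kb, Mlh3 was called lower and Syce3, with a span just inside the class at 20.338 kb, higher. These are 7.69% each, against 5.6% lower and 3.48% higher over all 4769 genes of that span. Of the 13 genes under 20 kb, 0 were called by limma voom, against 2.85% lower and 5.77% higher over the 9555 genes of that span. The median difference was -0.06 for these 13 and 0.10 over those 9555 genes. The median log2 level of the long genes minus that of the short ones was -3.78, -3.69 and -3.63 in the controls and -4.08, -4.39 and -4.32 in the knockouts, so that every knockout library lay lower. Over all genes it was -2.59, -2.52 and -2.47 against -2.77, -3.02 and -2.95. The rank correlation lay between -0.825 and -0.583 in every fit run. The cause of the relation was not tested.

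**Figure D3:**
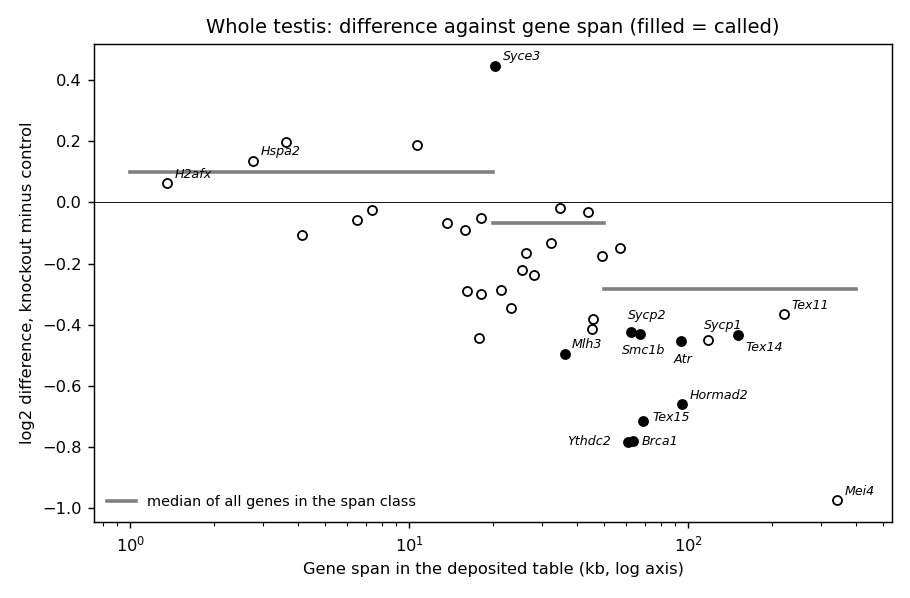
Log2 difference in whole testis by limma voom against gene span in kb (log axis) for the 38 genes, with filled points for those called and grey bars for the median of all genes in each span class. The 8 called genes of at least 50 kb lie below the bar of their class, while none of the 13 genes under 20 kb is filled. Over all genes under 20 kb, 2.85% were called lower and 5.77% higher.

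Further genes of synapsis, cohesin, recombination and the checkpoint, 97 listed and 83 found, were counted in the same way. Limma voom called 16 of the 83 lower, or 19.3%, and 0 higher, against 8.38% and 4.16% of all genes, with a median difference of -0.20. Limma called 1 lower and 1 higher of 41 tested, or 2.44% each, against 2.04% and 4.11% of all genes. At an unadjusted p under 0.05 limma voom found 30 of the 83, or 36.1%, against 29.3% of all genes. The 2 largest of the calls, chosen after their values were seen, were Stag2, a cohesin subunit of dividing cells, at -1.13 (adjusted p = 0.00046), and Atm, a kinase that limits break numbers, at -0.83 (adjusted p = 0.0181). By span, 12 of 31 with a span of 50 kb or more were called lower and 0 of 25 under 20 kb. Over all genes of these 2 classes, 22.1% and 2.85% were called lower. The rank correlation of span with the difference was -0.638, against -0.398 over all genes.

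In captured tissue none of the 38 genes was called in any of the 6 comparisons. Between genotypes at steps 4-8, limma called 0 of the 20 genes tested and 0% of 7857 genes. At an unadjusted p under 0.05 it found 286 genes and 0 of the 20, and limma voom called 0 of 19797 and found 613 genes. At steps 1-3 and 9-16 it called 0 again, with 525 genes and 1 of the 20 at unadjusted p under 0.05 and 761 genes by limma voom, which called 0. For the difference of those differences the unadjusted counts were 224 genes and 1 of the 20, and 480 genes by limma voom, with 0 called by both. The median SE of a genotype difference among the 20 was 0.5 on the log2 scale, with 2 libraries a group. Tsga8, the deleted gene, was itself not called in captured tissue by limma, at -5.79 ± 0.65 (adjusted p = 0.058) at steps 4-8 and -3.6 ± 0.65 (adjusted p = 0.196) at steps 1-3 and 9-16, nor by limma voom. Counts of 0 there do not show that the genotypes were alike.

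At steps 1-3 and 9-16 the knockout libraries lay above both controls for 3 of the 20 genes and below both for 4. Of all 7857 genes, 35.6% were apart in either direction, so lying apart was not particular to these genes. Mdc1 had the lowest p of the 20 in the genotype comparison of steps 1-3 and 9-16. Its values were 2.2 and 0.737 (control) and 2.15 and 2.32 RPKM (knockout) at steps 4-8, against 3.06 and 6.99 (control) and 1.57 and 1.34 RPKM (knockout) at steps 1-3 and 9-16. In steps 1-3 and 9-16 both knockout libraries lay under both controls, a difference of -1.22 ± 0.47 (adjusted p = 0.68), while in steps 4-8 it was 0.46 ± 0.47 (adjusted p = 1) with overlap. The difference between these differences was 1.67 ± 0.66 (adjusted p = 1). Rec8, at 7.11 and 4.52 (control) and 9.07 and 4.5 RPKM (knockout) at steps 4-8, against 2.08 and 7.6 (control) and 1.55 and 0.889 RPKM (knockout) at steps 1-3 and 9-16, was likewise lower in both knockout libraries of steps 1-3 and 9-16 (-1.23 ± 0.57, adjusted p = 0.764) and overlapped at steps 4-8. Hormad1 stood at 2.94 and 0.952 (control) and 1.18 and 3.91 RPKM (knockout) at steps 4-8, against 2.6 and 3.32 (control) and 5.92 and 7.43 RPKM (knockout) at steps 1-3 and 9-16. It was higher in the knockout libraries of steps 1-3 and 9-16, by 0.95 ± 0.52 (adjusted p = 0.806). So was Sycp3, by 0.90 ± 0.54 (adjusted p = 0.814), with 9.34 and 6.15 (control) and 6.96 and 15.7 RPKM (knockout) at steps 4-8, against 11.5 and 12.8 (control) and 18.2 and 30.1 RPKM (knockout) at steps 1-3 and 9-16. Neither Hormad1 nor Sycp3 was called. Sycp3 lies wholly within the span of Chpt1, which differed by 0.79 ± 0.42 (adjusted p = 0.796) by limma in that region. SMART-seq2 does not mark strand, so reads of Sycp3 and Chpt1 cannot be told apart there. Among the other genes with the lowest p there, Stag3 differed by -0.53 ± 0.39 (adjusted p = 0.846), H2afx by -0.52 ± 0.60 (adjusted p = 0.891) and Sycp1 by 0.47 ± 0.48 (adjusted p = 0.88), the last with 2.13 and 1 (control) and 2.1 and 1.67 RPKM (knockout) at steps 4-8, against 0.242 and 2.07 (control) and 1.73 and 1.68 RPKM (knockout) at steps 1-3 and 9-16.

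At steps 4-8 Spo11 had the lowest p, with 2.23 and 2.17 (control) and 7.71 and 3.08 RPKM (knockout) at steps 4-8, against 9.11 and 2.13 (control) and 3.75 and 4.44 RPKM (knockout) at steps 1-3 and 9-16. Both knockout libraries of steps 4-8 lay above both controls, by 0.90 ± 0.60 (adjusted p = 1), and the regions of the control overlapped. At steps 4-8 the knockout libraries lay above both controls for 2 of the 20 genes and below both for 2. Of all 7857 genes, 29.1% were apart in either direction. Among higher genes Spo11 was followed in order of p by Hspa2, Mdc1 and Smc3 (0.39 ± 0.48, adjusted p = 1). The lower genes with the lowest p were Atr (-0.34 ± 0.48, adjusted p = 1), Smc1b (-0.23 ± 0.44, adjusted p = 1), Sycp2 (-0.28 ± 0.67, adjusted p = 1) and H2afx (-0.13 ± 0.60, adjusted p = 1). None of these was called, and the genes that were lower in whole testis, Smc1b and Tex15 (0.10 ± 0.39, adjusted p = 1), were not called here either. The genotype difference itself differed between regions by 1.38 ± 0.81 (adjusted p = 1) for Rec8, 1.05 ± 0.85 (adjusted p = 1) for Spo11, -0.71 ± 0.74 (adjusted p = 1) for Hormad1 and -0.49 ± 0.62 (adjusted p = 1) for Smc1b.

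**Figure D4:**
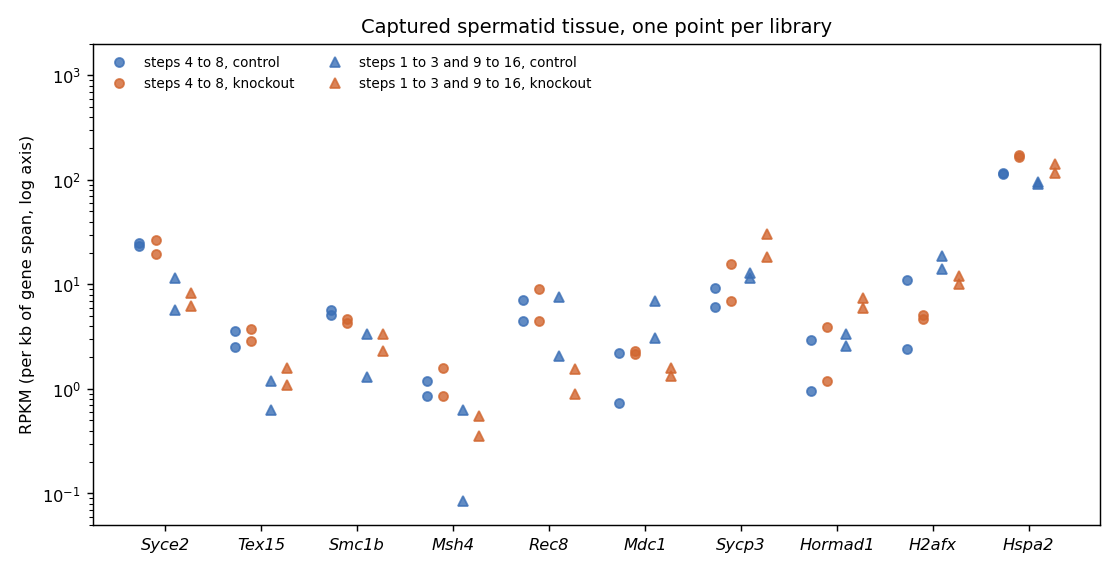
RPKM (log axis) of 10 of the genes described in captured tissue, with a point per library, in controls (blue) and knockouts (orange) of steps 4-8 (circles) and of steps 1-3 and 9-16 (triangles). Both knockout libraries of steps 1-3 and 9-16 lay below both controls for Mdc1 and Rec8, and above them for Hormad1 and Sycp3. In that region 35.6% of all genes tested by limma were apart in either direction.

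Regions were compared by subtracting steps 1-3 and 9-16 from steps 4-8. Limma called 0 of the 20 genes, and 0% of 7857, in control, in knockout and in their average, with 830, 816 and 1556 genes at unadjusted p under 0.05 and 5, 4 and 6 of the 20 among them. Limma voom called 0, 0 and 2 genes of 19797, none of them among the 38 and 0.0101% in the average. Its unadjusted counts were 1109, 1831 and 2612 genes. The regions lay apart in all 8 libraries for 4 of the 38 genes, all higher at steps 4-8, against 7.6% of genes tested.

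Syce2, a central element protein, stood furthest apart. Its values were 23.3 and 25 (control) and 19.6 and 26.6 RPKM (knockout) at steps 4-8, against 5.75 and 11.5 (control) and 8.29 and 6.26 RPKM (knockout) at steps 1-3 and 9-16. All 4 libraries of steps 4-8 exceeded all 4 of the other region, with a difference of 1.5 ± 0.35 (adjusted p = 0.137). Without control 2 of steps 1-3 and 9-16 it was 1.72 with an adjusted p of 0.0436. The span of Syce2 shares 11.352% of its length with Gcdh, whose reads were 40.3% to 58.1% of those of Syce2 in all libraries and which differed by 1.57 ± 0.35 (adjusted p = 0.13). SMART-seq2 does not mark strand, so reads of the shared stretch cannot be told apart. Tex15 was also apart, at 3.59 and 2.5 (control) and 3.76 and 2.87 RPKM (knockout) at steps 4-8, against 0.636 and 1.19 (control) and 1.59 and 1.09 RPKM (knockout) at steps 1-3 and 9-16, by 0.98 ± 0.27 (adjusted p = 0.146). Smc1b, at 5.06 and 5.69 (control) and 4.24 and 4.66 RPKM (knockout) at steps 4-8, against 1.3 and 3.33 (control) and 2.32 and 3.37 RPKM (knockout) at steps 1-3 and 9-16, differed by 0.76 ± 0.31 (adjusted p = 0.223). Msh4, at 0.854 and 1.2 (control) and 0.854 and 1.6 RPKM (knockout) at steps 4-8, against 0.0852 and 0.629 (control) and 0.548 and 0.356 RPKM (knockout) at steps 1-3 and 9-16, differed by 0.60 ± 0.28 (adjusted p = 0.263). Rec8, the meiotic cohesin subunit, differed by 1.07 ± 0.40 (adjusted p = 0.204) with overlap. For Tex15, Smc1b and Msh4 the lowest library was control 1 of steps 1-3 and 9-16, the shallowest captured library at 23467216 reads.

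Other genes leaned to the region of steps 1-3 and 9-16. H2afx, at 11 and 2.4 (control) and 5.05 and 4.62 RPKM (knockout) at steps 4-8, against 14 and 18.9 (control) and 10.2 and 12.1 RPKM (knockout) at steps 1-3 and 9-16, differed by -1.24 ± 0.42 (adjusted p = 0.177), Hormad1 by -0.87 ± 0.37 (adjusted p = 0.241) and Sycp3 by -0.85 ± 0.38 (adjusted p = 0.254). Sycp3 lies wholly within the span of Chpt1, which differed by -0.27 ± 0.30 and whose reads were 122% to 286% of those of Sycp3. Late spermatocyte markers also lay toward that region, at 2.4 to 2.94 in steps 4-8 and 2.81 to 3.67 in the other region, and their part in these differences was not tested. The region difference in control and in knockout, which share no library, had the same sign in 16 of 20 genes, or 80%, and in 69.9% of all genes. The Pearson correlation across the 20 genes was 0.671 and across all genes 0.559, where genes are not independent replicates.

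**Figure D5:**
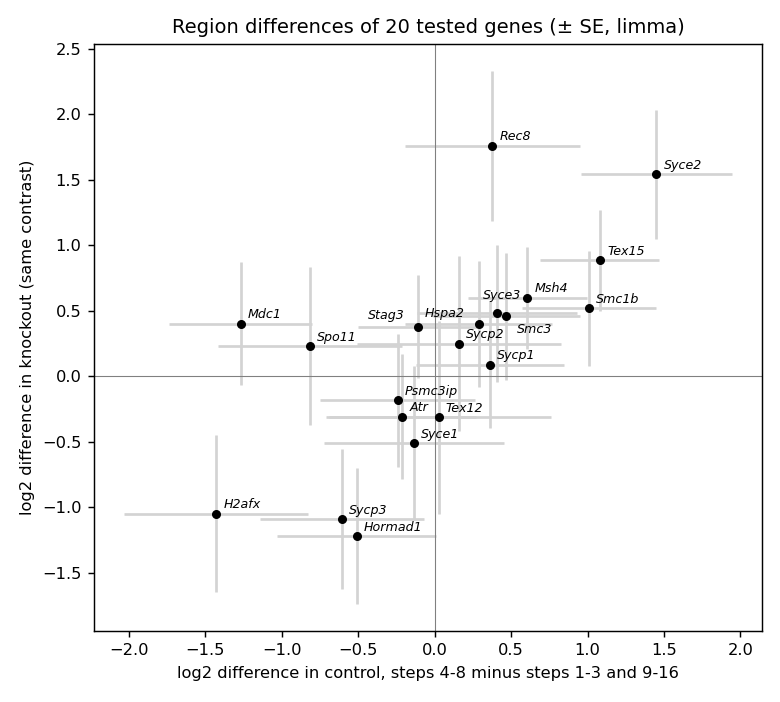
Region difference (log2, steps 4-8 minus steps 1-3 and 9-16) of the 20 genes tested by limma in control (x axis) against knockout (y axis). Syce2 lies high on both axes, at 1.45 and 1.54, and H2afx low on both, at -1.43 and -1.05; lines are SE.

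Dmc1, Mlh3 and Prdm9 were low in captured tissue, unlike Psmc3ip, Spo11, Tex15 and Msh4, whose mean RPKM in captured controls was 1.77, 0.925, 0.936 and 1.2 times that in control testis. Dmc1 was measured at 0.141 and 0.256 (control) and 0.17 and 0.308 RPKM (knockout) at steps 4-8, against 0.0235 and 0.413 (control) and 0.0695 and 0.0594 RPKM (knockout) at steps 1-3 and 9-16. Mlh3 was measured at 0.286 and 0.0142 (control) and 0.202 and 0.228 RPKM (knockout) at steps 4-8, against 0.222 and 0.767 (control) and 0.159 and 0.102 RPKM (knockout) at steps 1-3 and 9-16. Prdm9 was measured at 0.0646 and 0.106 (control) and 0.000955 and 0.0108 RPKM (knockout) at steps 4-8, against 0.0521 and 0.184 (control) and 0.0973 and 0.0945 RPKM (knockout) at steps 1-3 and 9-16. These 3 genes reached an RPKM of 1 in none of the 8 libraries. X-linked Tex11 stood at 0.0373 and 0.00212 (control) and 0.00276 and 0.00573 RPKM (knockout) at steps 4-8, against 0.00173 and 0.0325 (control) and 0.0552 and 0.0787 RPKM (knockout) at steps 1-3 and 9-16. Hspa2 stood at 116 and 114 (control) and 167 and 174 RPKM (knockout) at steps 4-8, against 92 and 96.5 (control) and 143 and 117 RPKM (knockout) at steps 1-3 and 9-16. Hspa2 stood higher in both knockout libraries of each region, at 0.56 ± 0.48 (adjusted p = 1) and 0.45 ± 0.48 (adjusted p = 0.883). Of all genes tested by limma, 29.1% and 35.6% were apart by genotype in these regions. Rad21l had 268 and 2 reads in control and 0 and 0 reads in knockout libraries of steps 4-8, too few to compare. Beside whole testis, 33 of the 38 genes had a lower mean RPKM in captured controls, and 5 a higher one. In knockouts 12 were higher. Leaving out 1 library, an alternative chosen after seeing the data, gave 5 to 7 higher in controls and 11 to 13 in knockouts. The 5 in controls were Syce3, at 4.18 times the level, Syce2, at 2.66, Psmc3ip, at 1.77, Mei4, at 1.76, and Msh4, at 1.2. Without control 2 of steps 1-3 and 9-16 the ratio of Mei4 was 0.503, and without control 2 of steps 4-8 that of Msh4 was 0.905, so both turned, while Syce3, Syce2 and Psmc3ip stayed above 1 without any one library. The largest ratios in knockouts were 5.39 for Mei4, 3.28 for Syce3, 2.92 for Syce2 and 2.01 for Rnf212. In controls the median ratio was 0.518 over the 38 and 0.654 over all genes, and 21 of the 38 lay below that median of all genes. A ratio below 1 was therefore usual among all genes too. The kits differ between the tissues, so these ratios are a description.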

How the data were processed

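Per the labels' protocols, whole testis RNA was made into libraries with a directional kit and captured RNA with SMART-seq2. Trim Galore 0.4.0, HISAT2 2.1.0, FastQC and mm10 are named in the submitters' processing notes. What counted the reads, and on which strand, is not given in the sources used here. Log2 RPKM per gene and library was deposited by the authors, with the whole gene span, introns included, as length and 0 reads entered as 0.9 read. RPKM had been assumed in planning, so values were raised back to RPKM.

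Whole reads were recovered from the deposited log2 values: 99.9871% lay within 0.05 of a whole number, and 100% of those below 1000 reads. Genotypes and regions were compared, two-sided, by limma (3.58.1, run under R 4.3.3) with an intensity trend on log2(RPKM + 1), for genes reaching an RPKM of 1 in 3 whole testis or 2 captured libraries, in 7 comparisons. Limma voom was run on recovered reads for genes with at least 10 reads in as many libraries; it called 1603 genes lower and 797 higher in whole testis. Calls had a Benjamini-Hochberg adjusted p under 0.05 over all genes tested, differences are log2 ± SE, and understate changes of low genes on the RPKM + 1 scale. The scripts were tested on simulated data. Read numbers of replicates differed by more than sampling noise in every pair.

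In whole testis, deviations from the group means correlated at 0.329, 0.362 and 0.148 between libraries of the same number, so the numbers were taken to pair them. Between libraries of other numbers they ran from -0.442 to 0.299, the highest being control 3 with knockout 2, above the 0.148. No label says what a number marks, so the replicate block rests on a pairing read from these same data. Exon lengths come from GENCODE vM21, in which 22 of the 38 genes had the table's coordinates; promoters come from RefSeq. Genes, lists and tests were chosen with earlier results of these data known. Every gene called was named with its values, otherwise the 4 with the lowest p in each direction, and 11 anchor genes. Alternatives were another pseudocount, filter, scaling, the replicate block and each library left out.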

Additional observations from a re-analysis of the deposited data

How the results depend on the processing

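In whole testis the number of the 38 genes called by limma moved from 2 to 1 without a filter on low values or on a common sum, to 0 with a mean RPKM of at least 5, to 5 with median centring and to 10 with limma voom. Leaving out 1 library gave 0 to 4 calls by limma and 1 to 15 by limma voom; leaving out both libraries numbered 1, chosen after seeing the data, gave 9 and 17. With the replicate block limma called 3 and limma voom 15. The share of all genes called was not counted with the block or with libraries left out. The pseudocount did not move the count beyond 1.5 times. In captured tissue the count was 0 under every alternative run, except that leaving out control 2 of steps 1-3 and 9-16 gave 1 call, Syce2, in the averaged region difference, against 0 to 1 over all libraries left out. The replicate block, by number or by genotype and number as if each marked 1 animal, gave 0 there, where same-numbered libraries correlated at -0.00984 to 0.18 and so share only a number. The causes of these changes were not tested. No called difference reversed under any alternative run. With 2 libraries a group in captured tissue, a genotype difference as large as that of the deleted Tsga8 (-5.79 and -3.6) was not called, so counts of 0 there say little.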
